A study of Mus musculus with 27 samples.

Results

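The transcripts that striatal neurons with the dopamine receptor D1 held on their ribosomes were compared between mice given repeated cocaine and mice given saline. The arrays were chosen by their titles: 13 of the 27 arrays of the series came from mice with the Drd1-TRAP tag, 8 of them after cocaine and 5 after saline. All genes were examined, each by the probe set with the highest mean over the 27 arrays, and 12017 of 18193 gene symbols passed a floor of 6 log2 units in 3 or more arrays and were tested.

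In translating ribosome affinity purification (TRAP), a ribosomal protein fused to GFP (L10a-GFP) is made in a single cell type, here under the Drd1 promoter on a bacterial artificial chromosome, and the RNA on the tagged ribosomes is purified with antibodies to GFP. All mice were male, 2 to 5 months old and of a mixed background of C57BL/6 and 129/Sv that had been backcrossed to C57BL/6. Every mouse, controls included, was homozygous for a floxed G9a gene (G9a fl/fl, gene symbol Ehmt2), which encodes a histone H3 lysine 9 methyltransferase. Controls were Drd1-TRAP; G9a fl/fl without Cre, and mutants were Drd1-TRAP; Drd1-Cre; G9a fl/fl, so that a genotype difference also holds the presence of the Cre transgene. Striatum was taken 2 h after the last of 8 injections of cocaine (20 mg/kg/day) or saline. There were 2 control saline, 4 control cocaine, 3 mutant saline and 4 mutant cocaine arrays, and the stated group sizes are numbers of mice. The cocaine effect was computed within each genotype and averaged over both, and changes are log2 differences, cocaine minus saline, with their standard error (SE) from limma. A gene is said to have risen or fallen where its Benjamini-Hochberg adjusted p over all genes tested was under 0.05.

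D1 neurons are projection neurons of the direct pathway. Cocaine blocks the dopamine transporter, and dopamine at the D1 receptor raises cyclic AMP, which activates protein kinase A, the factor CREB and the MAP kinase ERK. These act on a first wave of immediate early genes, among them transcription factors of the AP-1 (Fos and Jun), Egr and Nr4a families, and on genes for synaptic effectors and for phosphatases and other proteins that damp the signal. CREB binds the cyclic AMP response element (CRE, TGACGTCA) and its shorter core TGACG.

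The promoters of 6 genes that rose are shown because they carry this core next to the start of the gene. Each line gives the 150 bases before the start site, 5′ to 3′ on the gene's own strand, from the RefSeq promoter table (GRCm38.p6), with each CRE core in capitals.
Nr4a3 (chr4:48045155-48045304, plus strand): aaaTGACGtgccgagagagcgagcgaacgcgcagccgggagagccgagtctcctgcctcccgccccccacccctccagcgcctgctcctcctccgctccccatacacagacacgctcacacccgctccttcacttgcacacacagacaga
Apold1 (chr6:134981851-134982000, plus strand): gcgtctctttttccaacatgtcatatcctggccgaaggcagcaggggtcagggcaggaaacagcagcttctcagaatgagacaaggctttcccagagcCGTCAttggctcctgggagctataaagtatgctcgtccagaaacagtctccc
Fos (chr12:85473740-85473889, plus strand): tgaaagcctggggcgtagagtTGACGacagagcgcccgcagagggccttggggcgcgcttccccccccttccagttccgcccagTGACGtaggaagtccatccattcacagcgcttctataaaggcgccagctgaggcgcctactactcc
Fosb (chr7:19310046-19310195, minus strand): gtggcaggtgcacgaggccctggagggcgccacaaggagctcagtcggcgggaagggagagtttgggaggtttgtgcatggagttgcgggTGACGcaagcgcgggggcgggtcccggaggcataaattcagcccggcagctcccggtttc
Dusp1 (chr17:26508473-26508622, minus strand): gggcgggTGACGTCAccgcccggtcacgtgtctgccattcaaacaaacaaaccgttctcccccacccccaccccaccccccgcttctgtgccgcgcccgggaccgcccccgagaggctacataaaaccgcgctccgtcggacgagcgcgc
Rgs2 (chr1:144004150-144004299, minus strand): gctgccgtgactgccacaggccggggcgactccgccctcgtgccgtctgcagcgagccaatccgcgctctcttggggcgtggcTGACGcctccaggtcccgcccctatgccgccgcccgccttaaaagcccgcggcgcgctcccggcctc
The core was looked for as TGACG or CGTCA, that is on both strands, in the 250 bases before each start. It lay 147 bases before the start of Nr4a3, 52 bases before that of Apold1, 60 bases before that of Fosb and 67 bases before that of Rgs2. In Fos it occurred 129 and 66 bases before the start, and in Dusp1, at 143 bases, both strands matched as the full element. Of the 64 risen genes with a promoter in the table, 36 (56.2%) held the core, against 2968 of 9709 genes tested (30.6%). A gene was counted where any of its promoters in the table matched. Counted by promoter instead, 17.8% of all 32851 in the table held it, a share not directly comparable with those by gene. Risen genes without the core there included Shisa2, Irs2, Fosl2, Inhba, Gadd45b and Kcna5. Among the fallen genes 1 of 9 held it. The full element was in 3 of the 64 (4.69%) and in 3.04% of the genes tested. Median GC content of these windows was 60.5% for the risen genes and 60% for all genes tested. A match describes the sequence and is not evidence of binding.

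The D1 label was checked against markers first. Drd1 lay between 12.12 and 12.85 in the 13 arrays and Drd2 between 6.33 and 7.10, and 9 of the 10 D1 markers exceeded 6 in every array. Penk, the enkephalin gene of D2 neurons, lay between 10.77 and 11.65, below its mean of 13.93 in the D2 arrays. The D2 markers Drd2, Penk, Gpr6 (7.71 to 8.10) and Ptprm (6.61 to 7.86) exceeded 6 in every array. Grik3, Nt5e and Upb1 did not. Among GABAergic interneuron markers Sst, Npy, Pvalb, Nos1 (8.21 to 8.86) and Calb2 exceeded 6 in every array, and Vip and Th did not. Chat, the defining marker of cholinergic interneurons, stayed between 4.25 and 4.73, and none of the 5 markers of those cells exceeded 6 in every array. Of 10 microglial markers 2 did, Csf1r (6.75 to 7.54) and Ctss (7.31 to 8.37), while P2ry12 lay between 3.86 and 4.23. So did 6 of 10 astrocyte markers, with Aldoc at 9.32 to 10.53, and 5 of 9 oligodendrocyte markers, with Mbp at 9.92 to 10.86. Ehmt2 lay between 8.03 and 9.37 in mutants and between 9.95 and 10.74 in controls, without overlap. Ttr, a choroid plexus transcript, exceeded 9.5, called high here, in 2 of the arrays (12.36 in mutant saline replicate 3 and 9.67 in control cocaine replicate 3). It was 9.26 in mutant cocaine replicate 2 and at most 8.33 in the others. The RNA quality measure, the log2 difference between 3′ and 5′ control probe sets of Actb and Gapdh, was 1.96 to 2.01 in control saline and 2.17 to 2.90 in control cocaine arrays, which did not overlap. In mutants it was 2.19 to 2.68 after saline and 2.16 to 2.34 after cocaine. Within-genotype differences in this measure averaged 0.153 (exact permutation test within genotypes, 2-sided, adjusted p = 0.417). Its group mean went from 1.985 to 2.438 in controls and from 2.39 to 2.24 in mutants. These opposite shifts partly cancel in the average, so the test does not speak for either genotype alone. Its part in the changes below was not tested beyond the values given.

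After repeated cocaine 80 genes were higher in D1 neurons (0.666% of those tested) and 10 lower (0.0832%), 0.749% in all. The risen genes were led by the nuclear receptor Nr4a3 (3.51-fold), Shisa2 (3.42-fold), a membrane protein known to retain Wnt and FGF receptors in the endoplasmic reticulum, and the AP-1 factors Fos (3.09-fold), Fosl2 (2.63-fold) and Fosb (2.47-fold). Of the 80, 10 rose by more than 1 log2 unit, 27 by 0.5 to 1 and 43 by less than 0.5, with a median of 0.43 and a smallest change of 0.22. The 10 fallen genes moved between -0.29 and -0.59. At an unadjusted p under 0.05 there were 1373 genes (11.4%). Over all genes tested the median change was 0.03, and 62.6% of them lay above 0. In purified RNA from a tissue, fewer cells of a type and less RNA per cell cannot be told apart, and here the ribosome loading of a transcript joins them.

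Every cocaine array lay above every saline array for 123 genes tested (1.02%) and below for 18 (0.150%). This held for 41 of the 80 risen and 5 of the 10 fallen genes. The count of calls depended on single arrays. It was 12 without control saline replicate 1, 13 without control saline replicate 2 and 30 without mutant saline replicate 1, and it was 147 without control cocaine replicate 3. Leaving out any other D1 array gave 42 to 65 calls. All 90 genes kept their sign in each of these fits. There were 7 genes that passed in all 13 of them, and 25 more passed in 10 to 12.

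The 7 genes were Shisa2, Nr4a3, Apold1, Irs2, Bcl6, Per2 and Jarid2. For Shisa2 the control cocaine arrays read 8.09, 8.36, 7.28 and 8.29 on the log2 scale and the mutant cocaine arrays 8.22, 8.62, 7.82 and 7.96. Its saline values were 6.36 and 6.24 in controls and 6.30, 6.44 and 6.21 in mutants. The lowest cocaine array, control replicate 3, was thus still above every saline array. Shisa2 rose by 1.77 (SE 0.179, adjusted p = 5.98e-06), by 1.71 in controls and 1.84 in mutants, and its other probe set changed by 1.31.

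Nr4a3 encodes an orphan nuclear receptor that acts as a transcription factor without a known ligand. After cocaine it read 11.35, 11.28, 10.42 and 11.48 in controls and 11.10, 11.33, 11.20 and 11.44 in mutants. After saline it read 9.57 and 9.52 in controls and 9.07, 9.30 and 9.32 in mutants. Both genotypes were fully separated by drug, and control cocaine replicate 3 was again the lowest cocaine array. The rise was 1.81 (SE 0.207, adjusted p = 2.06e-05), and an exact permutation within genotypes gave p = 0.0019 (adjusted 0.0057), the smallest that 525 arrangements allow. Its 2 other probe sets, at mean levels of 7.40 and 4.08, changed by -0.01 and -0.25.

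Apold1, an endothelial early response gene, was near the floor after saline (5.69 and 5.91 in controls, 5.78, 5.81 and 6.05 in mutants). After cocaine it reached 6.89, 6.21, 6.35 and 6.40 in controls and 6.89, 7.22, 6.82 and 7.03 in mutants. The drug groups did not overlap, and 3 of the 4 control cocaine arrays lay below every mutant cocaine array. The rise was 0.89 (SE 0.1, adjusted p = 2.06e-05). The endothelial markers Cldn5 and Pecam1 stayed at 5.28 to 5.77 and 3.75 to 4.26, below the floor, in every D1 array. Kdr, the VEGF receptor of endothelial cells, was above it in every D1 array (6.45 to 6.91), and Flt1 lay at 5.98 to 6.45. The summed endothelial and mural markers ranged from 47.6 to 48.46 in control saline, 47.81 to 49.72 in control cocaine, 47.33 to 49.3 in mutant saline and 47.67 to 49.35 in mutant cocaine arrays, which overlapped, and none of the 4 tested members of that list passed.

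Irs2 encodes an adaptor that carries insulin and IGF1 receptor signals to PI3 kinase. Its cocaine values were 9.06, 8.67, 8.83 and 8.82 in controls and 8.63, 8.72, 8.92 and 8.52 in mutants, all above its saline values of 7.91 and 8.01 in controls and 7.88, 7.70 and 8.13 in mutants. It rose by 0.84 (SE 0.109, adjusted p = 0.000156) and passed in both genotypes taken alone, as did Shisa2 and Nr4a3. In controls alone Nr4a3 was at the threshold (adjusted p = 0.05) and was lost in 12 of 13 leave-one-out fits, Irs2 was lost in 7 and Shisa2 in 3. In mutants alone Irs2 was lost in 4, and neither Shisa2 nor Nr4a3 was lost in any.

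Bcl6 is a zinc finger repressor of transcription. It read 9.09, 9.13, 8.57 and 9.63 in control and 8.86, 9.02, 8.95 and 8.85 in mutant cocaine arrays, and between 7.69 and 8.02 in the 5 saline arrays. The rise of 1.13 (SE 0.169, adjusted p = 0.00116) came from the probe set with the higher signal, while another at a mean of 4.79 changed by -0.10. Jarid2, a cofactor of the Polycomb complex PRC2, moved from between 10.09 and 10.22 after saline to between 10.53 and 10.98 after cocaine, without overlap. Its rise was 0.62 (SE 0.102, adjusted p = 0.004), and it is named here after its values were seen.

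**Figure D1:**
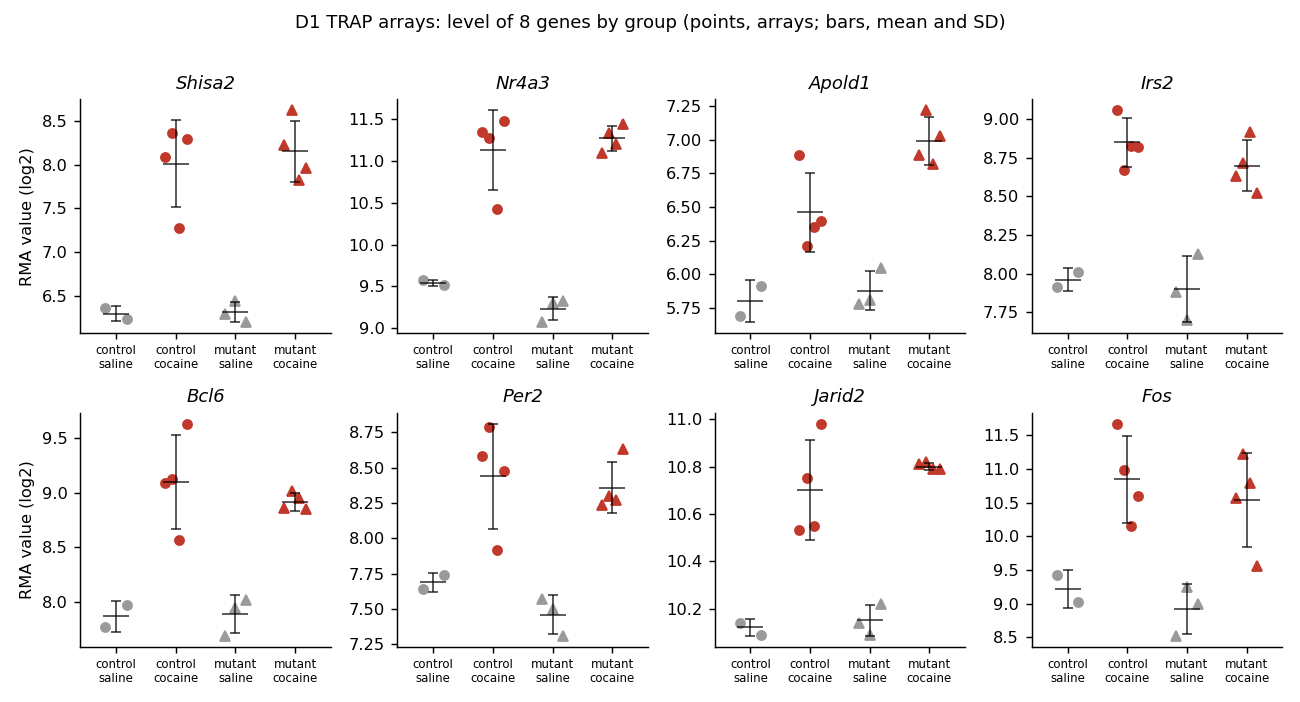
Log2 RMA values of Shisa2, Nr4a3, Apold1, Irs2, Bcl6, Per2, Jarid2 and Fos in the 13 D1 arrays, 1 point per array (circles, controls; triangles, mutants; grey, saline; red, cocaine), with group mean and SD as bars; each panel has its own axis, which does not start at 0. In each gene the 8 cocaine arrays lie above the 5 saline arrays, and control cocaine replicate 3 is the lowest control cocaine array for Shisa2 (7.28), Nr4a3 (10.42) and Fos (10.15).

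Among the AP-1 factors, which bind DNA as Fos and Jun dimers, 3 of 6 tested members rose (Fos, Fosl2 and Fosb) and none fell. The median change of the 6 was 1.11. Fos read 11.67, 10.98, 10.15 and 10.60 in control cocaine arrays against 9.42 and 9.02 after saline. In mutants it read 10.57, 11.22, 10.79 and 9.56 after cocaine against 8.52, 9.25 and 8.99. Cocaine and saline did not overlap, but mutant cocaine replicate 4 lay only just above the highest saline array. Fos rose by 1.63 (SE 0.317, adjusted p = 0.0143), with 1.63 in controls and 1.62 in mutants, neither of which passed alone (adjusted p = 0.162 and 0.115). The exact permutation test within genotypes gave p = 0.00381 (adjusted 0.00572). In limma the call ended without mutant saline replicate 1, control saline replicate 1 or control saline replicate 2, with adjusted p up to 0.134.

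Fosl2 (Fra-2), a Fos family partner of Jun, read 10.43, 10.22, 8.88 and 10.39 in control cocaine and 9.97, 10.21, 9.91 and 10.33 in mutant cocaine arrays. Its saline values were 8.72 and 8.54 in controls and 8.64, 8.86 and 8.51 in mutants. Control cocaine replicate 3 lay just above the highest saline array, and the other 7 cocaine arrays were far above it. The rise was 1.4 (SE 0.271, adjusted p = 0.0141), while a dimmer probe set at a mean of 6.72 changed by 0.24.

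Fosb, whose stable splice form ΔFosB is known to accumulate in the striatum with repeated cocaine, read 9.64, 9.05, 7.73 and 9.31 in control cocaine arrays. In mutants given cocaine it read 8.56, 8.66, 8.88 and 8.94. The saline arrays held 7.26 and 7.48 in controls and 8.03, 7.63 and 7.47 in mutants, so that 1 cocaine array lay inside the saline range. Fosb rose by 1.31 (SE 0.249, adjusted p = 0.0119), and its single probe set does not tell splice forms apart. The calls of Fosl2 and Fosb ended without either control saline array (adjusted p up to 0.119 and 0.107).

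The Jun members did not pass. Junb changed by 0.91 (SE 0.247, adjusted p = 0.0944), from 5.91 to 7.30 over the saline arrays and 6.88 to 8.55 over the cocaine arrays. Jun changed by 0.45 (adjusted p = 0.212) and Jund by 0.16 (adjusted p = 0.542). Fosl1 and Atf3 had median levels of 5.36 and 5.14 and were not tested.

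In the Nr4a family 1 of 3 tested members, Nr4a3, rose. Nr4a1 (Nur77) ranged from 9.41 to 10.65 after saline and from 10.28 to 11.78 after cocaine, and its change of 0.99 (SE 0.338) had an adjusted p of 0.207. Nr4a2 (Nurr1) was scattered within every group. Its values were 6.57 and 10.16 in control saline, 8.01, 10.28, 5.37 and 10.60 in control cocaine, 11.30, 9.43 and 9.92 in mutant saline and 9.65, 5.16, 9.51 and 8.85 in mutant cocaine arrays. The change was -0.86 (SE 0.806, adjusted p = 0.746). Neurod6, a marker of cortical excitatory neurons, was at 3.48, 3.13 and 2.99 in the 3 arrays with the lowest Nr4a2 (control saline 1, control cocaine 3 and mutant cocaine 2) and at 5.36 or above in the other 10. The 5 markers of those neurons summed to 23.36, 23.6 and 21.74 in the same 3 arrays and to between 25.86 and 33.47 in the others. Among them Tbr1 ranged from 3.50 to 6.90 and Slc17a7 from 4.47 to 5.68. Their part in the Nr4a2 values was not tested.

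Egr factors are zinc finger proteins, and 3 of 4 tested members rose (Egr2, Egr4 and Egr1; median of the 4, 0.64). Egr2 went from between 8.51 and 9.5 after saline to between 9.37 and 11.41 after cocaine, an overlap made by control cocaine replicate 3. Its rise of 1.29 (SE 0.312, adjusted p = 0.0499) was at the threshold and was lost in 12 of 13 leave-one-out fits, with adjusted p up to 0.315. A further probe set changed by 1.4.

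Egr1 (Zif268) read 12.74 and 12.60 in control saline and 13.26, 13.10, 12.39 and 13.13 in control cocaine arrays. In mutants it read 12.51, 12.55 and 12.31 after saline and 13.02, 13.30, 13.27 and 13.23 after cocaine. The mutants were fully separated, and control cocaine replicate 3 was below both control saline arrays. Egr1 rose by 0.53 (SE 0.111, adjusted p = 0.025). Egr4 rose by 0.76 (SE 0.163, adjusted p = 0.0292), from 7.58 to 8.94 over saline arrays and 8.83 to 9.5 over cocaine arrays. The calls of Egr1, Egr2 and Egr4 each ended after cyclic loess normalisation and with the RNA quality measure as a covariate. Egr3 changed by 0.13 (adjusted p = 0.793), and control cocaine replicate 3 (11.46) lay below every other D1 array for it.

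**Figure D2:**
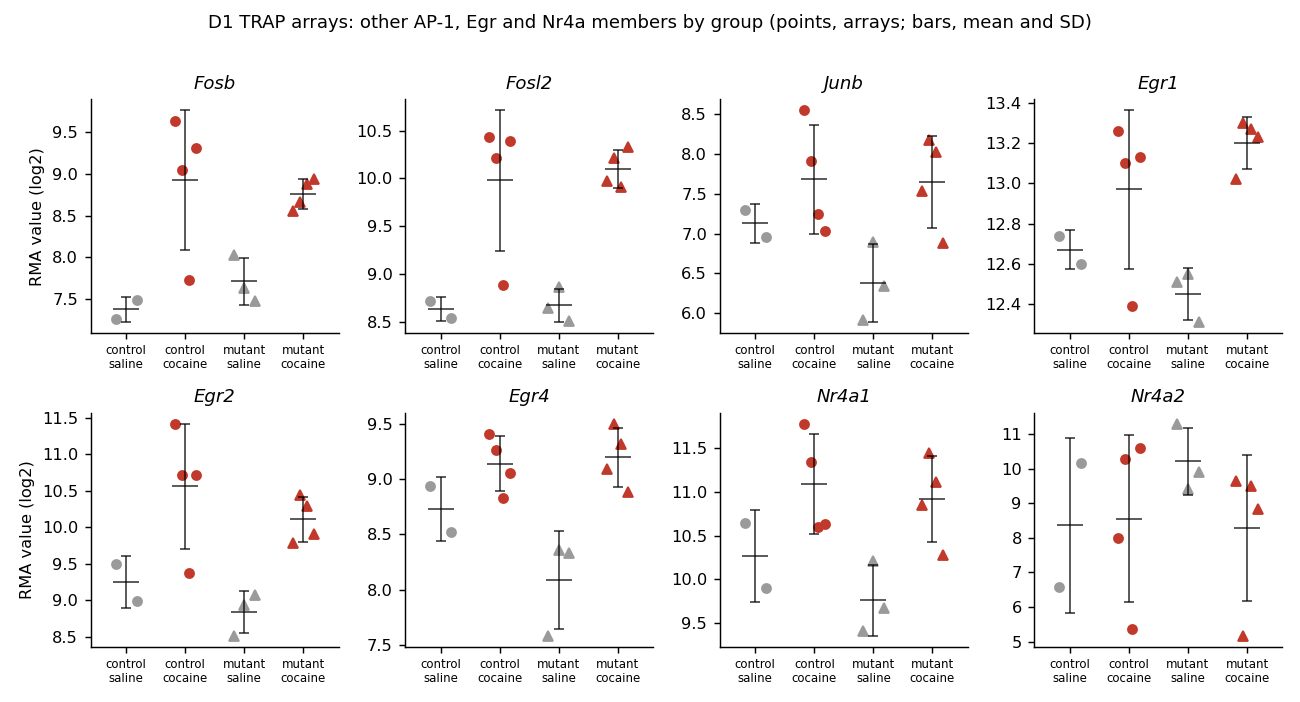
Log2 RMA values of Fosb, Fosl2, Junb, Egr1, Egr2, Egr4, Nr4a1 and Nr4a2 in the 13 D1 arrays, drawn as points per array with group mean and SD (circles, controls; triangles, mutants; grey, saline; red, cocaine; axes do not start at 0). Control cocaine replicate 3 stands apart below the other control cocaine arrays for Fosb (7.73), Fosl2 (8.88), Egr1 (12.39) and Egr2 (9.37), and Nr4a2 spans 5.16 to 11.30.

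Levels after cocaine were uneven between arrays. Over the 13 tested members of the 3 families, control cocaine replicate 3 was the lowest of the 8 cocaine arrays in 9, and mutant cocaine replicate 4 in 3 (Fos, Junb and Nr4a1). Among the 9 were Egr3, Jun and Jund, which did not pass. Control cocaine replicate 1 was the highest in 6. Control cocaine replicate 3 also had raised Ttr, and without it and the other array with high Ttr there were 125 calls in place of 90, a check chosen after the data were seen. With Ttr as a covariate there were 94. Mutant cocaine replicate 2, with Ttr at 9.26, was the highest cocaine array for Egr1 and Egr4. Control cocaine replicate 3 had the lowest sum of the 10 D1 markers, 101.67 against 104.4 to 109.3 in the other 12 arrays, and the lowest Drd1 (12.12 against 12.23 to 12.85). Levels per array do not tell weaker induction from a difference in purification or dissection, and the part of each was not tested.

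Of the other rapid transcription regulators 1 of 10 tested members, Btg2, rose, with a median of 0.41 over the list. Btg2, an antiproliferative regulator of mRNA deadenylation, went from between 6.98 and 7.31 to between 7.42 and 8.53 and rose by 0.83 (SE 0.156, adjusted p = 0.0111). Among the members that did not pass, Tiparp changed by 0.92 (adjusted p = 0.108), Csrnp1 by 0.51 (adjusted p = 0.0646), Crem by 0.51 (adjusted p = 0.126) and Bhlhe40 by 0.47 (adjusted p = 0.0755). The neuronal factor Npas4, at 3.94 to 5.85, and Myc, at 5.01 to 5.51, were below the floor in all D1 arrays and were not tested.

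Activity-induced effectors act at synapses and in growth signalling, and 7 of 17 tested members rose: Arc, Inhba, Pim1, Gadd45b, Rasd1, Nptx2 and Plk3. None fell, and the median of the 17 was 0.33. Arc, which controls AMPA receptor endocytosis, read 9.61, 9.40, 9.35 and 9 in control cocaine arrays against 8.39 and 7.89 after saline. In mutants it read 9.05, 9.51, 9.32 and 8.27 after cocaine against 7.79, 8.12 and 7.91. Mutant cocaine replicate 4 was the lowest cocaine array and lay below the higher control saline array. Arc rose by 1.15 (SE 0.193, adjusted p = 0.004), a call that ended only without control saline replicate 2 among the 13 arrays (adjusted p = 0.0752).

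Inhba, the activin A subunit, rose by 0.82 (SE 0.149, adjusted p = 0.00895), from between 8.79 and 9.23 to between 9.37 and 10.26, without overlap. Nptx2, a secreted pentraxin that clusters AMPA receptors, rose by 0.65 (SE 0.108, adjusted p = 0.004). It read 8.20, 7.95, 7.92 and 8.24 in control cocaine arrays against 7.33 and 6.97 after saline, and 8.02, 7.81, 8.14 and 7.80 in mutant cocaine arrays against 7.86, 7.37 and 7.49. Controls were well separated and mutants overlapped. The kinase gene Plk3 rose by 0.61, the small GTPase gene Rasd1 by 0.65 and Gadd45b, a regulator of DNA demethylation, by 0.65. Pim1, a serine/threonine kinase gene, rose by 0.66 with overlapping groups. The calls of these 4 had adjusted p between 0.024 and 0.0378, and each was lost in 6 to 10 of the 13 leave-one-out fits.

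Homer1 changed by 0.16 (adjusted p = 0.511), Vgf by 0.33 (adjusted p = 0.208) and Gadd45g by 0.56 (adjusted p = 0.0673), and these did not pass. Bdnf ranged from 4.82 to 6.17 and was not tested.

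Feedback genes of the MAP kinase and cyclic AMP pathways were represented by 16 tested members, of which 2 rose (Dusp1 and Rgs2; median of the list, 0.25). Dusp1, a phosphatase that inactivates MAP kinases and carries the full element printed above, read 11.64, 11.33, 10.87 and 10.66 in control cocaine arrays against 10.51 and 10.21 after saline. In mutants it read 10.71, 11.29, 11.02 and 10.33 after cocaine against 9.95, 10.32 and 9.88. Each genotype was separated by drug, with mutant cocaine replicate 4 just above its saline arrays. Dusp1 rose by 0.77 (SE 0.158, adjusted p = 0.0192).

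Rgs2 accelerates GTP hydrolysis on G protein alpha subunits. It read 12.42 to 12.86 after saline and 12.98 to 13.41 after cocaine, without overlap, and rose by 0.53 (SE 0.106, adjusted p = 0.0153). Its 3 other probe sets changed by 0.38, 0.62 and -0.07. Both calls ended without mutant saline replicate 1 or either control saline array, with adjusted p up to 0.157 for Dusp1 and 0.139 for Rgs2, and both ended after cyclic loess normalisation. Among members that did not pass, Dusp14 changed by 0.63, Dusp4 by 0.57, Sik1 by 0.41 and Spred2 by 0.34, with adjusted p from 0.115 to 0.147.

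Of the 17 circadian clock genes tested, 1 rose. Per2, a repressor of the CLOCK and BMAL1 pair, read 8.58, 8.79, 7.92 and 8.48 in control cocaine arrays against 7.64 and 7.74 after saline. In mutants it read 8.24, 8.30, 8.27 and 8.63 after cocaine against 7.57, 7.5 and 7.31. The groups did not overlap, and Per2 rose by 0.83 (SE 0.120, adjusted p = 0.000893). Its other probe sets, at mean levels of 5.43 and 5.34, each changed by 0.07. Per1 changed by 0.59 (SE 0.166, adjusted p = 0.112), with all cocaine arrays (10.30 to 10.94) above all saline arrays (9.74 to 10.20). The list's median was 0.07, and Cry1 changed by 0.25 and Ciart by 0.21 without passing.

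Potassium channels held 2 risen genes among 31 tested, and the median of the list was -0.02. Kcna5, a subunit of Shaker-type voltage-gated channels, rose by 0.42 (SE 0.0715, adjusted p = 0.004), from between 9.69 and 9.95 to between 10.05 and 10.37. It was lost only without control saline replicate 2 among the 13 arrays (adjusted p = 0.0693). Kcna1, another Shaker subunit, rose by 0.33 (SE 0.0789, adjusted p = 0.0499) at the threshold, and the call was lost in 11 of 13 leave-one-out fits. Its other probe sets, at mean levels of 10.53, 9.13 and 4.04, changed by 0.12, 0.16 and 0.09.

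No member passed in the lists that describe the cyclic AMP machinery and the identity of the neuron. Dopamine, cyclic AMP and DARPP-32 signalling had 19 tested members with a median of 0.08. Ppp1r1b, which encodes DARPP-32, changed by 0.18 (adjusted p = 0.416), and the kinase subunit gene Prkaca by 0.20 (adjusted p = 0.4). Drd1 itself changed by 0.06 (SE 0.116). The 14 tested neuropeptide and secretogranin genes had a median of 0.15, with 0.20 for Tac1 (substance P), 0.01 for Pdyn (dynorphin) and 0.35 for Cartpt. Medians were 0.06 over 9 markers of D1 neurons, -0.04 over 7 of D2 neurons and 0.13 over 13 shared markers.

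Nor did any member pass among 17 glutamate receptor genes (median 0.01), 9 GABA-A subunits (median 0.00) or 21 heat shock and unfolded protein genes (0.07). The same held for 13 cholesterol synthesis genes (0.03), 13 glucocorticoid-responsive genes (0.07) and 14 H3K9 methylation genes (0.04). The last list holds enzymes and also the readers of the mark Cbx1, Cbx3 and Cbx5. In 2 of the 13 glucocorticoid-responsive genes all cocaine arrays lay above all saline arrays, against 1.02% of all genes tested. Among them Klf9 changed by 0.19 (adjusted p = 0.0733). Its probe sets at mean levels of 13.39, 12.86 and 9.38 changed by 0.29, 0.16 and 0.34. Those at 8.43, 5.62 and 5.53 changed by -0.08, -0.02 and -0.02. Ehmt2, the floxed gene, changed by 0.07 (SE 0.135, adjusted p = 0.905). No tested marker of interneurons, cortical neurons, astrocytes, oligodendrocytes, microglia, vessels or choroid plexus passed. A change that missed the threshold is not shown to be absent.

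**Figure D3:**
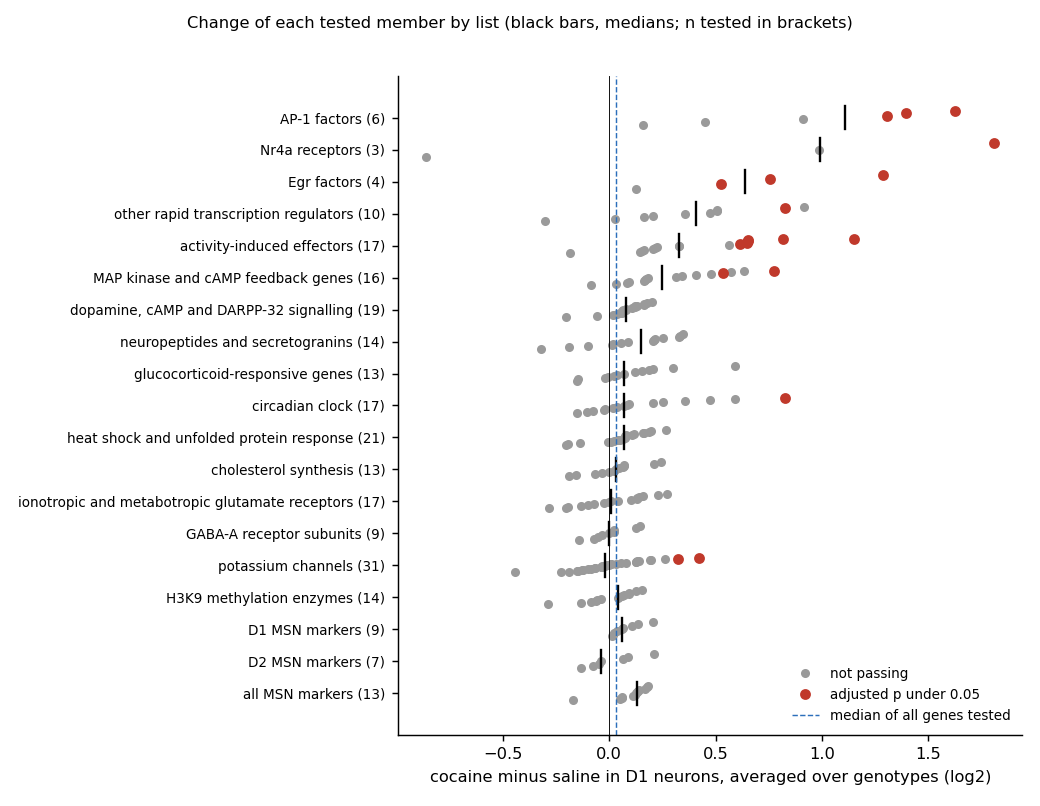
Each point is the averaged cocaine effect (log2) of 1 tested gene in D1 neurons, by list; red points have an adjusted p under 0.05, black bars are list medians and the dashed line is the median of all genes tested (0.03). The AP-1 (1.11), Nr4a (0.99) and Egr (0.64) medians lie farthest to the right, and lists from dopamine signalling to D2 markers centre between -0.04 and 0.15.

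Outside these lists, Midn, a nuclear protein that directs other proteins to the proteasome, rose by 1.04 (SE 0.176, adjusted p = 0.004), from between 6.22 and 6.59 to between 6.60 and 7.89. Chmp1b, a subunit of the ESCRT-III membrane remodelling complex, rose by 0.86 (adjusted p = 0.0345), and Rnf217, a ubiquitin ligase gene, by 0.80 (adjusted p = 0.024). Chmp1b was lost in 10 of the 13 leave-one-out fits and Rnf217 kept the call in 9. These were the largest rises in named genes outside the lists and the 7 genes above.

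The 10 fallen genes changed by at most 0.59 log2 units. Tshz3, a zinc finger homeobox factor, fell by 0.59 (SE 0.142, adjusted p = 0.0499), from a saline median of 6.28 (6.25 to 6.98) to a cocaine median of 5.88 (5.54 to 6.45), with overlap. Arhgap29 fell by 0.50, as did Pwwp3b. Abraxas1, a BRCA1 complex scaffold, fell by 0.47, and Plekha8, a glycolipid transfer protein of the Golgi, by 0.42. Rnd1 fell by 0.41, Prtg by 0.38, Abca1, a cholesterol exporter, by 0.37, Ccnf (cyclin F) by 0.34 and Ovca2 by 0.29. Abraxas1 changed by 0.20 at its other probe set, of mean level 4.33. Plekha8 changed by -0.06 at its other probe set, of mean level 7.06. The other probe sets of Arhgap29 (0.05 and 0.10), Abca1 (0.01 and -0.06) and Ccnf (0.01) had mean levels of 3.04 to 4.75. Those of Prtg, at mean levels of 5.74 and 3.50, changed by -0.23 and -0.17. Of the 13 leave-one-out fits, Tshz3, Pwwp3b, Rnd1 and Ovca2 were lost in 11, Prtg in 10, Abca1 and Abraxas1 in 9, Arhgap29 in 6, Plekha8 in 4 and Ccnf in 2.

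For 5 of them, Plekha8, Rnd1, Prtg, Abca1 and Ccnf, all cocaine arrays lay below all saline arrays. Ccnf was the fallen gene with the smallest adjusted p (0.0119), from between 6.58 and 6.76 to between 6.16 and 6.53, and it was lost without either control saline array (adjusted p up to 0.103). Several read below 6 in cocaine arrays, where these probe sets no longer stand clear of the floor.

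Taken by genotype, 8 genes passed in controls (0.0666%) and 11 in mutants (0.0915%). The 8 in controls all rose: Shisa2 (1.71), Nr4a3 (1.58), Nptx2 (0.93), Irs2 (0.89), Snhg10 (0.69), Mnt (0.68), Fam122a (0.53) and Gramd1b (0.47). Snhg10, Fam122a and Gramd1b were at the threshold (limma adjusted p = 0.05) and were lost in 10, 9 and 11 of 13 leave-one-out fits. Nptx2 and Mnt were each lost in 4. In the average Snhg10 changed by 0.28, and its probe sets at mean levels of 8.5 and 7.85 each by 0.02. In mutants 10 rose (0.0832%): Nr4a3 (2.04), Shisa2 (1.84), Midn (1.18), Apold1 (1.11), Egr4 (1.1), Per2 (0.90), Irs2 (0.79), Egr1 (0.75), Ccdc85b (0.61) and Slc41a1 (0.59). Slc23a3 fell by 0.51 there, the only call of a fall (0.00832%). Of these, 6 of the 8 and 10 of the 11 also passed in the average. The average is made from the same arrays and effects, so this overlap is not independent.

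The control count was the less stable one. It was 0 without control saline replicate 1, control saline replicate 2 or control cocaine replicate 1, and 0 with the RNA quality measure as a covariate, whose values did not overlap between drugs in controls. It was 70 without control cocaine replicate 3, 16 without control cocaine replicate 2 and 2 to 6 without any of the other 8. In mutants the count was 43 without control cocaine replicate 3, 42 without mutant saline replicate 2 and 3 without mutant cocaine replicate 2. It was 6 without mutant saline replicate 1, 7 without mutant saline replicate 3, mutant cocaine replicate 3 or control cocaine replicate 2, and 8 to 14 without any other D1 array.

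No gene passed the test of a genotype difference in the cocaine effect in limma, although 1340 had an unadjusted p under 0.05 (11.2%). Array weights gave 54 calls, cyclic loess 5, leaving out control cocaine replicate 3 gave 7, and leaving out control cocaine replicate 1 gave 1. The smallest adjusted p was 0.0837, which Trim9 (-1.11), Inpp4a (1.02), Calb2 (1.14) and Ogdh (0.95) shared. Inpp4a, a phosphoinositide phosphatase gene, read 11.51 and 11.10 in control saline and 10.93, 10.92, 10.36 and 10.56 in control cocaine arrays. In mutants it read 10.79, 10.85 and 10.75 after saline and 11.06, 11.19, 11.27 and 11.28 after cocaine. It was thus lower after cocaine in controls and higher in mutants, with no overlap in either genotype. Calb2 (calretinin) is a marker of GABAergic interneurons, and the 6 other markers of those cells summed to 41.46 and 42.73 in control saline and to between 40.99 and 42.23 in control cocaine arrays, which overlapped. In mutants these sums were 42 to 46.05 after saline and 41.4 to 44.84 after cocaine.

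For the genes that led the average, the genotype difference (mutants minus controls) was -0.02 for Fos (95% interval -1.32 to 1.29) and 0.13 for Shisa2 (-0.61 to 0.87). Nr4a3 differed by 0.45 (-0.40 to 1.31) and Irs2 by -0.09 (-0.54 to 0.35). Apold1 differed by 0.45 (0.04 to 0.86), Egr4 by 0.69 (0.02 to 1.37), Mnt by -0.50 (-0.83 to -0.17) and Nptx2 by -0.56 (-1 to -0.12), with adjusted p from 0.272 to 0.431. These intervals are wide beside the effects.

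**Figure D4:**
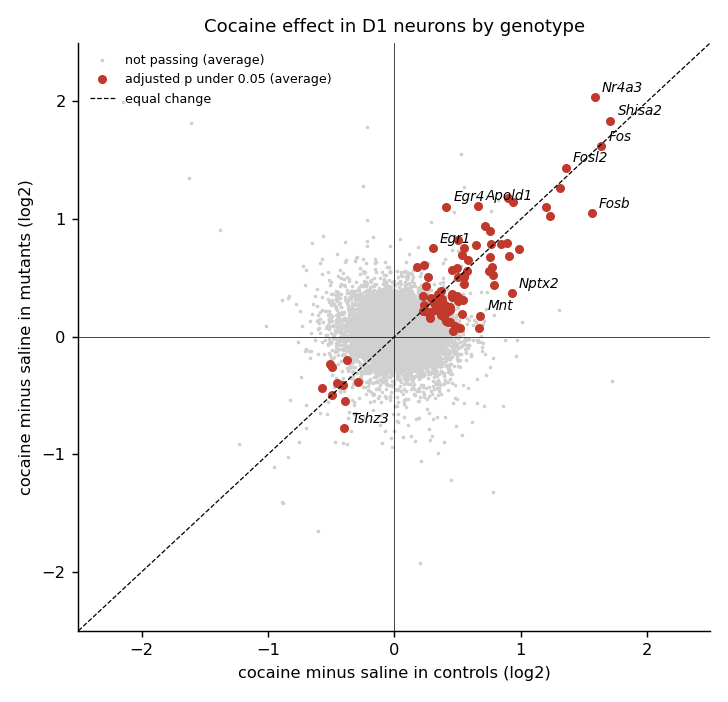
Cocaine effect (log2) in controls on the horizontal axis and in mutants on the vertical axis, 1 point per gene tested; red points passed in the average of both and the dashed line marks equal change. Nr4a3 (1.58 and 2.04), Shisa2 (1.71 and 1.84) and Fos (1.63 and 1.62) are farthest out.

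The same contrast in D2 neurons, from 14 arrays of the series, called 16 genes (0.133%), of which 10 rose (0.0832%) and 6 fell (0.0499%). The titles give the tag as Drd2-TRAP for the 7 controls and, with Drd2-Cre, as Drd-TRAP for the 7 mutants. In 1 of these arrays (mutant cocaine replicate 4) the source name calls the mouse a control. No array served both contrasts, and 5 of the 80 genes risen in D1 also rose in D2: Fos (2.38), Nr4a3 (1.34), Arc (1.02), Rnf217 (0.75) and Irs2 (0.59). Of the 80, 60 had a D2 change above 0, against 41.0% of all genes tested, and their median D2 change was 0.13. Of the 10 fallen genes, 9 had a D2 change below 0. Without D2 control cocaine replicate 4 there were 50 calls in D2 and without any other D2 array 6 to 16, and 3 to 6 of the 80 rose in D2 over these 14 fits.

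A test of the difference, D1 minus D2, passed for 3 genes (0.0250%). Apold1 rose by 0.89 in D1 and changed by 0.05 in D2, a difference of 0.83 (adjusted p = 0.0154). Shisa2 rose by 1.77 in D1 and changed by 0.42 in D2, a difference of 1.35 (adjusted p = 0.0444). St6galnac6, a sialyltransferase gene, changed by 0.19 in D1 (adjusted p = 0.208) and fell in D2 by 0.37, a difference of 0.56 (adjusted p = 0.0154). Each of the 3 was lost without control saline replicate 1 or mutant saline replicate 1 (0 calls in either case), and Shisa2 was lost in 8 of 13 leave-one-out fits and after cyclic loess or median centring. There were 7 calls without control cocaine replicate 4, 5 without mutant saline replicate 2 and 2 to 4 without any other D1 array. Leaving out D2 arrays, a check added after the data were seen, gave 38 calls without D2 control cocaine replicate 4, 6 without D2 control cocaine replicate 2, 5 without D2 mutant cocaine replicate 2 and 0 without D2 mutant saline replicate 3. It gave 2 to 4 calls without any other, and 2 without the array whose source name says control. In these 14 fits Shisa2 was lost in 8 (adjusted p up to 0.129), and Apold1 and St6galnac6 in 1 each (0.0532). The D2 arrays also enter the estimate of spread of the D1 contrasts, and without single D2 arrays the D1 average had 55 to 119 calls, the fewest without D2 mutant saline replicate 1 (55) and D2 control saline replicate 2 (58).

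For Fos the D1 change was smaller than that in D2 by 0.76 (SE 0.434, adjusted p = 0.552), and for Fosb it was larger by 1.03 (SE 0.342, adjusted p = 0.241). Neither difference passed. With the RNA quality covariate the count of differing genes was 38, and with array weights 406.

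**Figure D5:**
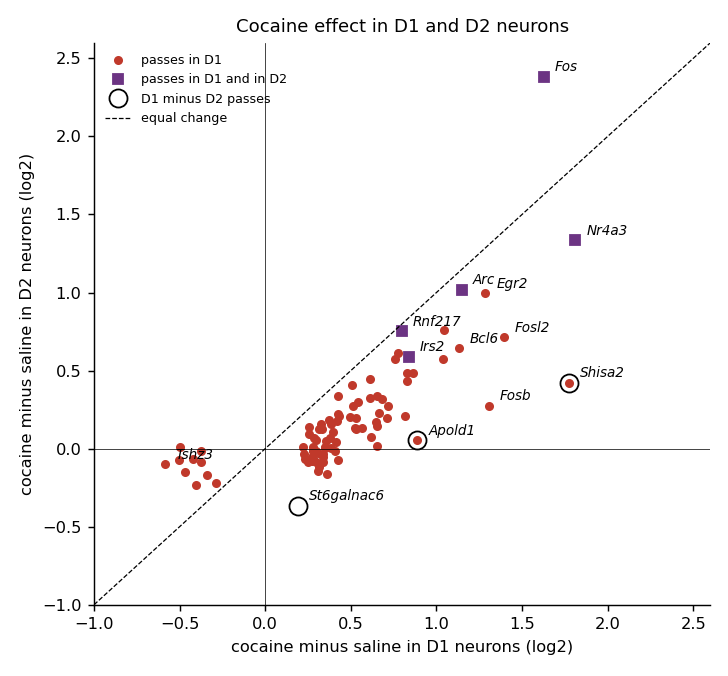
Cocaine effect (log2) in D1 neurons on the horizontal axis and in D2 neurons on the vertical axis for the 90 genes that passed in D1 (red), the 5 that passed in both (squares), and the 3 whose difference passed (black rings); the dashed line marks equal change. Shisa2 and Apold1 sit far to the right of the line at D2 changes of 0.42 and 0.05, and Fos lies above it at 2.38.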

How the data were processed

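The values are log2 expression levels of 45101 probe sets from 27 Affymetrix mouse expression arrays, as deposited. Per the submitters' processing notes they were produced with Affymetrix Expression Console 1.1 and RMA, a robust average of the probes in each set. RMA compresses low values, and arrays give no counts or depth. The number of arrays limits the precision. Symbols came from the array annotation: 34945 probe sets had 1 symbol, 932 several and 9160 none, and 64 were controls.

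All 27 arrays were fitted in limma 3.58.1 (R 4.3.3) with a mean for each of 8 groups of neuron type, genotype and drug, which leaves 19 residual degrees of freedom, and moderated by eBayes. Benjamini-Hochberg adjustment ran over the 12017 genes of each contrast. The 3 single measures (Fos, Nr4a3 and RNA quality) were also compared by exact 2-sided permutation within genotypes and adjusted over the 3. The smallest mean absolute difference between any pair of arrays was 0.137 log2, so no pair held identical values. Replicate numbers were not used as pairs, and the labels state no pairing. The correlations of same-numbered arrays' deviations were 0.03 and 0.32 in controls and 0.06, 0.35 and 0.11 in mutants. Differently numbered arrays gave -0.33 to 0.33 in controls and -0.28 to 0.25 in mutants. The code was tested on simulated data.

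Genes were named by rule: Fos, Nr4a3, Ehmt2, Drd1 and Drd2, up to 15 passing genes in each direction of the averaged effect by size, up to 8 in each direction of the other contrasts (or the 5 smallest p), all AP-1, Nr4a and Egr members, and in every other list the passing members and up to 4 others by p. Jarid2 and further list members were named after their values were seen. The arrays and lists were chosen with earlier results of these data known. Promoters were taken from a RefSeq table and searched in the 250 bases before the start. Alternatives changed the probe set, the filter, the normalisation, the moderation, covariates, the minimum fold, the replicate block and each array in turn, those of D2 added after the data were seen.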

Additional observations from a re-analysis of the deposited data

Results flagged for a closer look

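In 188 groups of 4 arrays (93 tested genes that the text names and the RNA quality measure, in control cocaine and in mutant cocaine mice), 10 single arrays stood far from the other 3 of their group. Chance alone gives such a value in about 1 of 20 groups, and the 10 found are close to that rate. The genes were read on the same arrays, so the groups are not independent, and no single entry below is set apart from chance. Control cocaine replicate 3 was the low array for Fosl2 (8.88 against 10.22 to 10.43), Chmp1b (9.01 against 10.14 to 10.33), Egr3 (11.46 against 12.44 to 12.50), Cry1 (8.27 against 8.89 to 9), Hbegf (8.36 against 9.11 to 9.24) and Plekha8 (7.44 against 7.67 to 7.70). This is the array with Ttr at 9.67 and the lowest summed D1 markers (101.67). Control cocaine replicate 1 was high for Gadd45b (9.82 against 9.49 to 9.55). Mutant cocaine replicate 4 was high for Per2 (8.63 against 8.24 to 8.30), mutant cocaine replicate 3 was high for Pwwp3b (6.86 against 6.33), and mutant cocaine replicate 2 was low for Jun (7.83 against 8.19 to 8.22).

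The cocaine effect differed between D1 and D2 neurons by limma's test of the difference for 3 genes. The D1 change exceeded the D2 change by 1.35 for Shisa2, by 0.83 for Apold1 and by 0.56 for St6galnac6.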

How the results depend on the processing

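No named result changed its direction while passing. Counts of calls moved by more than 1.5 times as follows (averaged effect 90, controls 8, mutants 11, genotype difference 0, D1 minus D2 difference 3). Fitting only the 13 D1 arrays gave 26 for the average, 0 for controls and 7 for mutants. Cyclic loess gave 31, 2 and 6, with 5 for the genotype difference. Median centring gave 42 for the average and 5 for controls. Array weights gave 547, 461, 218, 54 and 406 in that order. Asking for a change of at least 1.5-fold left 2, 0 and 0, and 0 for the D1 minus D2 difference. The probe set of highest variance gave 6 in mutants, no filter 4 in controls, a floor of 7 gave 20 in controls and 1 for the difference from D2, and moderation with a trend gave 17 and 5 for the same pair. The RNA quality covariate gave 0 in controls and 38 for the difference from D2, the Ttr covariate 3 in controls, and leaving out the 2 arrays with high Ttr 74 in controls. With the replicate number as a block there were 47 calls in mutants, 1 for the genotype difference and 1 for the difference from D2. The block left 64 in the average and 11 in controls, both within 1.5 times. The labels state no pairing by replicate number. Leaving out single arrays gave 12 to 147, 0 to 70, 3 to 43, 0 to 7 and 0 to 7 calls over the D1 arrays, and over the D2 arrays 55 to 119, 3 to 15, 7 to 20, 0 to 3 and 0 to 38. The cause of these shifts was not tested. The exact tests of Fos, Nr4a3 and RNA quality kept their side of the threshold (Fos 1.49 to 1.79, Nr4a3 1.75 to 1.93 without single arrays). Of the 10 genes risen by over 1 log2 unit, 9 passed after cyclic loess and 10 with the block, and of the 43 risen by less than 0.5, 6 and 7 did. The control saline group holds 2 mice, and the average had 12 and 13 calls without either.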

Other observations

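Further genes rose that belong to none of the lists, and those without a place in the naming rule are named here after their values were seen. Gpr3, a receptor that signals through cyclic AMP without a ligand, rose by 0.66 (SE 0.146, limma adjusted p = 0.0319), from 6.46 to 7.07 over the saline arrays and 7.11 to 8.04 over the cocaine arrays. Hbegf, a ligand of the EGF receptor, rose by 0.72 (SE 0.167, adjusted p = 0.0432) with overlapping groups. Phlda1 rose by 0.68 (SE 0.115, adjusted p = 0.004), from between 8.30 and 8.63 to between 8.85 and 9.44. Tmsb4x, which encodes the actin-binding peptide thymosin beta 4, rose by 0.34 (SE 0.0586, adjusted p = 0.00478), and its cocaine arrays (13.32 to 13.47) all lay above its saline arrays (12.94 to 13.17). Dnajb5, a J-domain cochaperone gene, rose by 0.71, and Sik2, a kinase gene of the salt-inducible family, by 0.50. Of the 13 leave-one-out fits, Phlda1 and Tmsb4x passed in 12, Dnajb5 and Sik2 in 10, Gpr3 in 4 and Hbegf in 2.

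Of the 43 genes that rose by less than 0.5, 6 passed after cyclic loess normalisation and 15 after median centring.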
